A study of Mus musculus with 18 samples.

Results

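The genes described here encode the enzymes of the tricarboxylic acid (TCA) cycle and of pyruvate metabolism, together with the kinases, phosphatases and carriers that control entry of pyruvate and exit of citrate and malate. They were chosen by name, as 34 gene symbols, and each matched 1 of the 49585 gene rows. The question was how these genes behaved in mouse kidneys in which *Lin28A*, an RNA-binding protein that blocks maturation of the let-7 microRNAs, was switched on in the nephrons. OE kidneys came from *Lin28A* OE mice of the genotype Lox-stop-Lox-TetOn-Lin28A; Six2Cre, after 1, 2 or 5 weeks of doxycycline (Dox) in the drinking water at 1 g/L. Control kidneys came from mice with Lox-stop-Lox-TetOn-Lin28A and no Six2Cre, on the same Dox for the same times, so both genotypes shared the inducible allele and the drug. The sample titles call these controls WT, and the methods of the study name the alleles as TRE-Lin28A and Lox-stop-Lox-TetOn-rtTA, in which the stop cassette stands before rtTA and *Lin28A* is under the TRE promoter. Six2Cre removes the stop cassette in nephron progenitors and their descendants, whereas whole kidneys were sequenced, with their vessels, stroma, collecting ducts and immune cells. Poly(A) RNA was sequenced from 18 libraries in 6 groups of 3. The labels give neither the age nor the sex of the mice, and do not say whether libraries of a group came from separate animals, so p-values measure the spread between these libraries.

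Pyruvate made in the cytosol enters mitochondria through a dedicated carrier, where the pyruvate dehydrogenase complex turns it into acetyl-CoA and pyruvate carboxylase turns it into oxaloacetate. The TCA cycle joins both products into citrate and oxidizes it stepwise, handing electrons to the respiratory chain. The proximal tubule, the most abundant epithelium of the kidney cortex, is rich in mitochondria, lives largely on fatty acid oxidation and also makes glucose from lactate and glutamine.

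Values are normalized read counts, that is, reads of a gene divided by a size factor for the library. The libraries held 21176911 to 28686369 reads. As a check of the labels, *Lin28a* counted 41737 to 68744 in OE kidneys at 1 week, 52622 to 116461 at 2 weeks and 420.1 to 615 at 5 weeks, against at most 28.5 in any control library. *Xist* exceeded 100 in 6 libraries and *Ddx3y*, a Y-linked gene, in the other 12, in both genotypes over the 3 weeks, with no *Xist* library among the controls at 1 week. Each gene was tested with limma on log2(count + 1) in 1 fit of all libraries, which took in the 16984 genes averaging more than 10. A gene is called lower or higher at a Benjamini-Hochberg adjusted p under 0.05 over all of them. All 34 genes passed that filter, with a lowest mean of 741. Fold changes of genes with few reads are slightly understated on this scale.

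Promoter sequence is shown for 4 of the genes, the 3 that moved furthest in the TCA and pyruvate set at 2 weeks among the lower ones and the kinase gene *Pdk4*, which moved the other way. Each run covers 250 bases before to 50 after the start of the 5′-most RefSeq transcript on GRCm38.p6, and capitals mark every match to the motifs counted below. The windows are chr11:21571885-21572184 on the minus strand for *Mdh1*, chr19:4510222-4510521 on the plus strand for *Pcx*, chr9:86695865-86696164 on the minus strand for *Me1* and chr6:5496229-5496528 on the minus strand for *Pdk4*.
Mdh1: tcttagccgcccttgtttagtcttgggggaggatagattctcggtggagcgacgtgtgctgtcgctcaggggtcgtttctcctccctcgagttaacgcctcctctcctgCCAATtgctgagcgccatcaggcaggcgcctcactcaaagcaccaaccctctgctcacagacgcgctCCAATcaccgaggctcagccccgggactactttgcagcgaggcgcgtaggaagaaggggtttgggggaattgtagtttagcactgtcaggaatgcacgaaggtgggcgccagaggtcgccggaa
Pcx: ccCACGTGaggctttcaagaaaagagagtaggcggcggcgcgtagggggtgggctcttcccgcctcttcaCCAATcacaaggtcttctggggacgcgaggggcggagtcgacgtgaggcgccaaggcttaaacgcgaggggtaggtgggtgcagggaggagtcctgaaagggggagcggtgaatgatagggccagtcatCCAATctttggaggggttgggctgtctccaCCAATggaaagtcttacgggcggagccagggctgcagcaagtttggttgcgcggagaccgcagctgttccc
Me1: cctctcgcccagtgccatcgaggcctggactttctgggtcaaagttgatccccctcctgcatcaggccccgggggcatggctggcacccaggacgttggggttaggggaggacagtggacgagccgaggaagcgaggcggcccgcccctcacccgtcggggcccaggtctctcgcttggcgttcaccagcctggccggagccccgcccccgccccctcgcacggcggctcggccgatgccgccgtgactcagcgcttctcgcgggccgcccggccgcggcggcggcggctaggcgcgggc
Pdk4: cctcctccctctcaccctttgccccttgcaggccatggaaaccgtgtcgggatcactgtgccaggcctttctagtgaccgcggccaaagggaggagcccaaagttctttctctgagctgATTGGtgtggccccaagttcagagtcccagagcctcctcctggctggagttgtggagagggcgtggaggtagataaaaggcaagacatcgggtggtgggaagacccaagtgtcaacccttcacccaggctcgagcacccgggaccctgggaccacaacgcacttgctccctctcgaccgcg
For 6 motifs, of factors known to act on metabolic genes, both strands were searched in the 43 windows of the 32 genes with an entry and in all 32851 windows of the same length. The CCAAT box, the letters CCAAT, stood in 29 of the 43 windows (67.4%, 23 genes), against 37.4% of all windows. The E-box CACGTG stood in 7 windows (16.3%, 5 genes), against 7.15% of all windows. The NRF1 motif, GCGCA and GCGC with any 1 base between them, stood in 2 windows, those of *Dld* and *Sucla2* (4.65%, against 4.6%), and the ETS motif CCGGAAGT in 1, that of *Dlst* (2.33%, against 3.89%). The ERR response element TNAAGGTCA, bound by estrogen-related receptors, was in none of the 43 windows, against 1.28% of all windows. The PPAR response element, AGGTCA repeated with any 1 base between, was also in none, against 0.0396% of all windows. No motif of the 6 contains another. Other spellings were counted after these values had been seen, and the shares moved with the spelling: without its last C the NRF1 motif stood in 4 windows (9.3%, against 6.25%), with T as the free base as well in 2 (4.65%, against 1.75%), and AGGTCA alone in 7 (16.3%, against 16.3%). Several windows belong to the same gene, no test was made, and a match in a window is not a site that was seen to be bound.

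Most of these genes were lower in OE kidneys at every week. After 1 week 30 of the 34 were lower and 1, *Pdp1*, was higher, against 15.6% lower and 18.7% higher among all genes tested. After 2 weeks 32 were lower and 2, *Pdk4* and *Pdp1*, were higher, against 28.8% lower and 28.9% higher among all genes. After 5 weeks 24 were lower, against 7.9% of all genes. None was higher then by limma, edgeR or DESeq2, against 7.67% of all genes by limma. At an unadjusted p under 0.05 none was higher in any of these tests either, and the share of all genes at that level was not counted. The count of 24 was 15 without OE replicate 2 at 5 weeks and 15 without OE replicate 3. It was 11 in a fit of the *Ddx3y* libraries alone and 13 after quantile normalization. The 1-week count of 30 was 20 after quantile normalization. The 1-week calls lost there were those of *Cs*, *Idh1*, *Idh2*, *Idh3a*, *Idh3b*, *Ogdh*, *Mdh1*, *Pdha1*, *Pdhb* and *Pcx*. Their log2 fold changes under that setting lay between -0.75 for *Pcx* and -0.16 for *Idh3a*.

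The median of the 34 log2 fold changes was -0.73, -1.60 and -0.59 at 1, 2 and 5 weeks, so that the median gene stood at 60.3%, 33.1% and 66.5% of control. Over all genes tested the median was -0.02, 0.01 and 0.02. A fold change past 2 in either direction, together with the test, was met by 3 lower genes at 1 week, against 5.02% of all genes. The 2-week comparison had 30 such lower genes, against 16.8%, and 1 higher, *Pdk4*, against 14.8%. The 5-week comparison had 2 lower, against 3.03%. Without regard to a test, every OE library lay below every control library of the same week for 30 genes at 1 week, 32 at 2 weeks and 29 at 5 weeks. The same held for 24.1%, 29.9% and 17.8% of all genes tested. For *Pdk4* and *Pdp1* all 3 OE libraries exceeded all 3 controls at 1 and at 2 weeks, against 25.4% and 31% of all genes, and at 5 weeks that held for 0 of the 34, against 17.3%. The genes that overlapped were *Pdhx* and *Pdk3* at 1 week, and *Idh1*, *Pdk3*, *Pdk4*, *Pdp1* and *Acly* at 5 weeks.

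**Figure D1:**
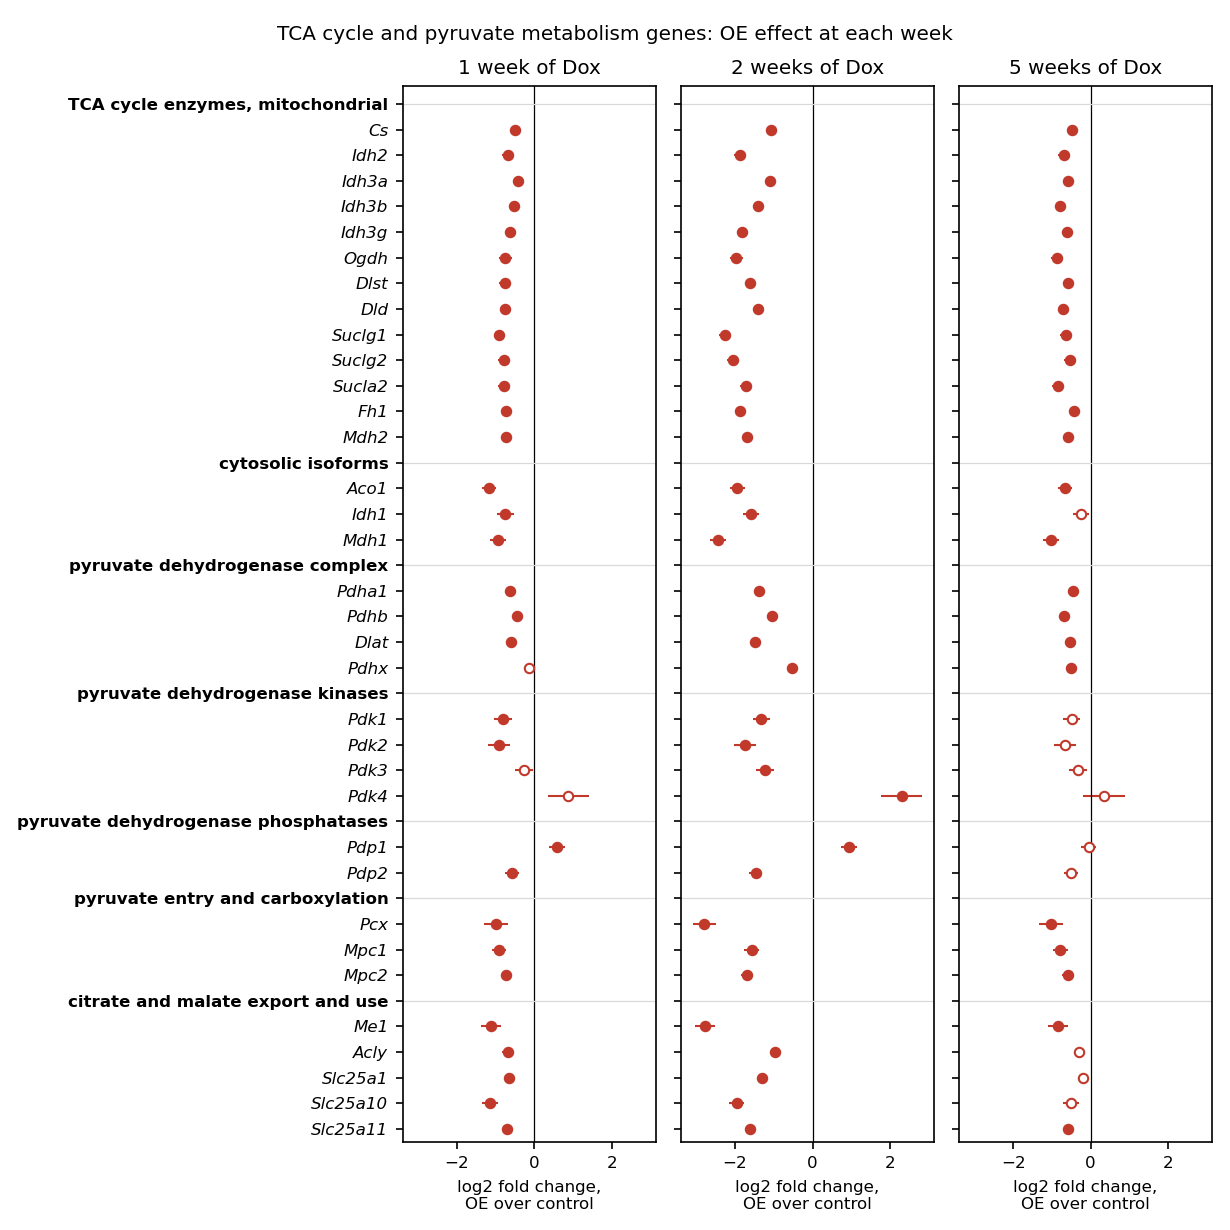
Log2 fold change of OE over control kidneys (x axis) for the 34 genes by role (y axis) at 1, 2 and 5 weeks of Dox, with bars of 1 standard error from limma. Filled points have an adjusted p under 0.05, and the filled points right of 0 are *Pdp1* at 1 week and *Pdk4* and *Pdp1* at 2 weeks.

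Together the 34 genes took up 0.738 to 0.867% of the reads in OE kidneys at 1 week, against 1.18 to 1.21% in control kidneys. At 2 weeks the share was 0.422 to 0.524% in OE kidneys, against 1.13 to 1.23% in control kidneys. At 5 weeks it was 0.765 to 0.975% in OE kidneys, against 1.17 to 1.22% in control kidneys. The shares of OE and control libraries did not overlap in any week, and the lowest were those of OE kidneys at 2 weeks. Genes marking particular kidney cell types moved with them. Of 12 proximal tubule markers 10, 12 and 5 were lower at 1, 2 and 5 weeks, with median log2 fold changes of -1.48, -3.72 and -0.97. Their summed counts were 107095 to 159983 in OE kidneys at 1 week, against 330467 to 418284 in control kidneys. At 2 weeks they were 19556 to 47295 in OE kidneys, against 391673 to 468093 in control kidneys, and at 5 weeks 132851 to 226297 in OE kidneys, against 309271 to 364708 in control kidneys.

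Markers of immune cells moved the other way. Of 12 macrophage and monocyte markers 11, 12 and 11 were higher at 1, 2 and 5 weeks. Their summed counts were 20536 to 23187 in OE kidneys at 1 week, 23496 to 49059 at 2 weeks and 13435 to 19977 at 5 weeks, and at most 4983 in any control library. Of 5 neutrophil markers 5, 5 and 3 were higher. Among the other lists, 1, 3 and 3 of 4 thick ascending limb markers, 0, 4 and 3 of 4 podocyte markers and 2, 2 and 1 of 4 collecting duct markers were lower and none was higher, and 1, 1 and 3 of 5 fibroblast markers were higher and none was lower. The shares of all genes were the 15.6%, 28.8% and 7.9% lower and 18.7%, 28.9% and 7.67% higher given above. The summed collecting duct markers overlapped between OE and control kidneys in each week, with 26907 to 47633 in OE kidneys at 2 weeks, against 21959 to 43609 in control kidneys, and 25490.1 to 67659 in OE kidneys at 5 weeks, against 25242 to 39969 in control kidneys. No marker was at 0 in all libraries of a group. In whole kidneys, fewer cells of a type and less RNA per cell cannot be told apart, and the part of these markers in the results on the TCA and pyruvate genes was not tested.

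**Figure D2:**
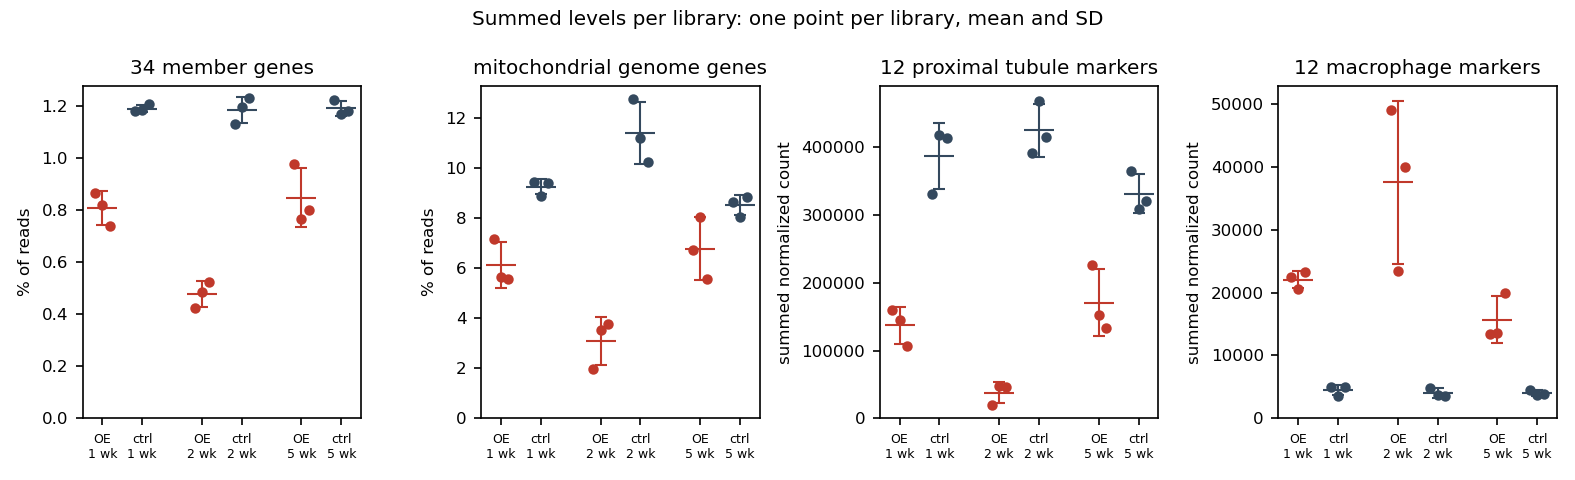
Share of reads in the 34 TCA cycle and pyruvate genes and in genes of the mitochondrial genome (percent), and summed normalized counts of 12 proximal tubule and 12 macrophage and monocyte markers, with 1 point per library and bars of mean and SD, for OE (left of each pair) and control kidneys at 1, 2 and 5 weeks. The first 3 measures are lowest in OE kidneys at 2 weeks and the macrophage sum is highest there.

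The 13 mitochondrial enzymes of the cycle itself were lower in OE kidneys at all 3 weeks. Their median log2 fold change was -0.74 at 1 week, -1.73 at 2 weeks and -0.61 at 5 weeks. *Cs*, citrate synthase, joins acetyl-CoA and oxaloacetate. Its counts were 7765, 6651 and 7129 in OE kidneys at 1 week, against 8863, 10912 and 10874 in control kidneys. At 2 weeks they were 4716, 5267 and 5278 in OE kidneys, against 9331, 11837 and 10760.3 in control kidneys. At 5 weeks they were 7314, 6207 and 7024 in OE kidneys, against 9229, 9650.2 and 9822 in control kidneys. *Cs* fell less than the median of the 34 genes in each week, and no OE library reached the lowest control of its week. Its log2 fold change was -0.50 (SE 0.12, adjusted p = 0.00306, limma), -1.06 (SE 0.12, adjusted p = 9.59e-07) and -0.49 (SE 0.12, adjusted p = 0.0101). After quantile normalization the 1-week value of *Cs* was -0.21 (adjusted p = 0.174, limma).

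Isocitrate is oxidized by the NAD-dependent Idh3 complex and by the NADP-dependent *Idh2*. *Idh3b* encodes a regulatory subunit of the complex. It counted 8083, 7455 and 6775 in OE kidneys at 1 week, against 10417, 9896 and 12116 in control kidneys. At 2 weeks the counts were 4329, 4322 and 4004 in OE kidneys, against 10269, 12015 and 11272 in control kidneys, and at 5 weeks 7324, 5641 and 5679.5 in OE kidneys, against 10837, 10361 and 10856 in control kidneys. *Idh3b* stood at 68.9%, 37.8% and 57.7% of control, with adjusted p of 0.00224, 5.86e-08 and 0.000492 from limma. Its 1-week call was lost after quantile normalization, at -0.23. The catalytic subunit gene *Idh3a* had log2 fold changes of -0.42, -1.09 and -0.59, and *Idh3g*, for the other regulatory subunit, -0.64, -1.81 and -0.61. *Idh2* counted 9207, 10349 and 9321 in OE kidneys at 1 week, against 15351, 14615 and 16363 in control kidneys. Its 2-week counts were 3268, 5195 and 5639.7 in OE kidneys, against 16377, 15917 and 17943 in control kidneys, and at 5 weeks 9513, 12132 and 10135 in OE kidneys, against 15533, 17589.5 and 17986 in control kidneys. Its log2 fold changes were -0.68, -1.87 and -0.69.

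The 2-oxoglutarate dehydrogenase complex is built from the products of *Ogdh*, *Dlst* and *Dld*, and *Dld* also serves the pyruvate dehydrogenase complex. *Ogdh* counted 13257, 12007 and 11265 in OE kidneys at 1 week, against 16069.8, 23981 and 22053 in control kidneys. Its counts at 2 weeks were 5494, 6011 and 7346 in OE kidneys, against 21152, 26825 and 25541 in control kidneys. At 5 weeks they were 14056, 10582 and 11266 in OE kidneys, against 20458, 23039.5 and 21483 in control kidneys. *Ogdh* had the third largest fall of the 34 genes at 5 weeks by the fit, with a log2 fold change of -0.87 (SE 0.16, adjusted p = 0.00236, limma), beside -0.75 and -1.97 at 1 and 2 weeks. *Dld* counted 8955, 7986 and 7173 in OE kidneys at 1 week, against 14506, 12434 and 14139.6 in control kidneys. The 2-week values were 5142, 4983 and 4662 in OE kidneys, against 12081, 13239.9 and 13917 in control kidneys, and those of 5 weeks 9301, 6497 and 7347 in OE kidneys, against 12681, 12109.5 and 12809.5 in control kidneys. Its log2 fold changes were -0.77, -1.41 and -0.72, and those of *Dlst* -0.77, -1.61 and -0.58.

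Succinate-CoA ligase has a shared alpha subunit from *Suclg1* and either a GDP-forming beta subunit from *Suclg2* or an ADP-forming one from *Sucla2*. *Suclg1* counted 7444, 7122 and 5404 in OE kidneys at 1 week, against 13316, 11252 and 12615 in control kidneys. It counted 2521, 2555 and 3019 in OE kidneys at 2 weeks, against 12102, 13065 and 13793 in control kidneys, and 9443, 6768 and 7262 in OE kidneys at 5 weeks, against 12849.8, 10710.3 and 12585 in control kidneys. *Suclg1* had log2 fold changes of -0.91, -2.27 and -0.63, and at 2 weeks stood at 20.7% of control, the lowest of the 13 mitochondrial enzymes. *Sucla2* counted 6346, 5255 and 5009 in OE kidneys at 1 week, against 9581, 9168 and 9587 in control kidneys. The 2-week counts were 2531, 2836 and 2881 in OE kidneys, against 8182, 9413 and 9773 in control kidneys, and those at 5 weeks 6547, 3914 and 4993 in OE kidneys, against 9610.4, 8294 and 9169 in control kidneys. The fall of *Sucla2* at 5 weeks had a log2 fold change of -0.84 (SE 0.15, adjusted p = 0.00173, limma). *Suclg2* counted 4658, 4304 and 3720.3 in OE kidneys at 1 week, against 7328, 6826 and 7758 in control kidneys. It was at 1464, 1951 and 2404 in OE kidneys, against 6986, 8558 and 8108 in control kidneys, at 2 weeks and at 5675, 4596 and 4514 in OE kidneys, against 7681, 6794 and 6704 in control kidneys, at 5 weeks. Its log2 fold changes were -0.79, -2.05 and -0.52.

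Fumarate is hydrated to malate by the product of *Fh1*, and malate is oxidized to oxaloacetate by that of *Mdh2*. *Fh1* had log2 fold changes of -0.74, -1.87 and -0.43. *Mdh2* counted 10069, 8719.9 and 8127 in OE kidneys at 1 week, against 14084, 14735 and 15709 in control kidneys. Counts at 2 weeks were 5151, 4737 and 5046 in OE kidneys, against 15057, 16204 and 17095 in control kidneys, and at 5 weeks 12573, 9132 and 10444 in OE kidneys, against 15998, 16126 and 16090.2 in control kidneys. The control libraries of *Mdh2* were close to each other, above all at 5 weeks, and every OE library was below them. Its log2 fold changes were -0.73, -1.69 and -0.60. In all alternatives tried, the 5-week calls of *Idh3a*, *Idh3b*, *Idh3g*, *Ogdh*, *Dld*, *Sucla2* and *Pdhb* held. Those of *Fh1* and *Suclg2* were lost in 7 and 8 of 18 alternatives, and those of *Cs* and *Dlst* in 3 and 4. Without OE replicate 3 at 5 weeks *Fh1* was at -0.27 (adjusted p = 0.187, limma), and without any 1 control its call was also lost, at -0.47 to -0.41. *Suclg2* lost its call without any 1 library other than OE replicate 1, at -0.56 to -0.46, *Cs* without OE replicate 2, at -0.42, and *Dlst* without OE replicate 2, at -0.49, or 3, at -0.54.

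*Mdh1* encodes the cytosolic malate dehydrogenase of the malate-aspartate shuttle. Per kilobase of exon it was the most abundant of the 34 genes, at 19268 ± 2273 normalized reads in the control libraries (SD, n = 9). Its counts were 28442, 27777 and 20936 in OE kidneys at 1 week, against 58286, 40226 and 50351 in control kidneys. At 2 weeks the OE kidneys had 7836, 9420.3 and 10368, against 48860.0, 44464 and 56186 in control kidneys, and at 5 weeks 32459.7, 18601 and 23264, against 53769, 45524 and 47484 in control kidneys. *Mdh1* and *Pcx* had the largest falls at 5 weeks, to 49.4% and 49.5% of control by the fit, and by group means the order of the 2 genes turned, with 50.6% for *Mdh1* and 49.7% for *Pcx*. By the fit *Mdh1* had the third largest fall at 2 weeks. The log2 fold change was -0.95 (SE 0.20, adjusted p = 0.00193, limma), -2.44 (SE 0.20, adjusted p = 5.43e-08) and -1.02 (SE 0.20, adjusted p = 0.00356). After quantile normalization the 1-week value of *Mdh1* was -0.43 (adjusted p = 0.0931, limma). Its 5-week call was lost in 1 of 18 alternatives, the *Ddx3y* libraries alone, at -0.85.

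*Aco1* encodes cytosolic aconitase, which also acts as an iron regulatory protein, and *Idh1* the cytosolic NADP-dependent isocitrate dehydrogenase. *Aco1* counted 6195, 5932 and 5127 in OE kidneys at 1 week, against 10909, 14179 and 14024 in control kidneys. It was at 2748, 3757 and 3808 in OE kidneys at 2 weeks, against 10442, 15057 and 14073 in control kidneys, and at 9331, 6917 and 5838 in OE kidneys at 5 weeks, against 12783, 11131 and 10681 in control kidneys. By the fit the fall of *Aco1* was the largest of the 34 at 1 week, by a narrow margin over *Slc25a10* (-1.14) and *Me1* (-1.13), with a log2 fold change of -1.17 (SE 0.19, adjusted p = 0.000168, limma), beside -1.94 and -0.67 later. Its 5-week call was lost in 7 of 18 alternatives, among them the omission of OE replicate 2 or 3 or of control replicate 1 or 2, with -0.69 to -0.52. *Idh1* counted 14171, 14628 and 8533 in OE kidneys at 1 week, against 24669, 18225 and 18677 in control kidneys, and 6662, 4919 and 6193 in OE kidneys at 2 weeks, against 16292, 17287 and 19599 in control kidneys. At 5 weeks it counted 18004, 14160.0 and 12633 in OE kidneys, against 21839, 15060.1 and 16295 in control kidneys, where the groups overlapped. *Idh1* was lower at 1 and 2 weeks, with log2 fold changes of -0.75 and -1.59, and its value of -0.24 at 5 weeks did not pass the test (adjusted p = 0.474, limma). The 1-week call of *Idh1* was lost after quantile normalization, at -0.33, without OE replicate 3, at -0.50, and without control replicate 1, at -0.61.

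**Figure D3:**
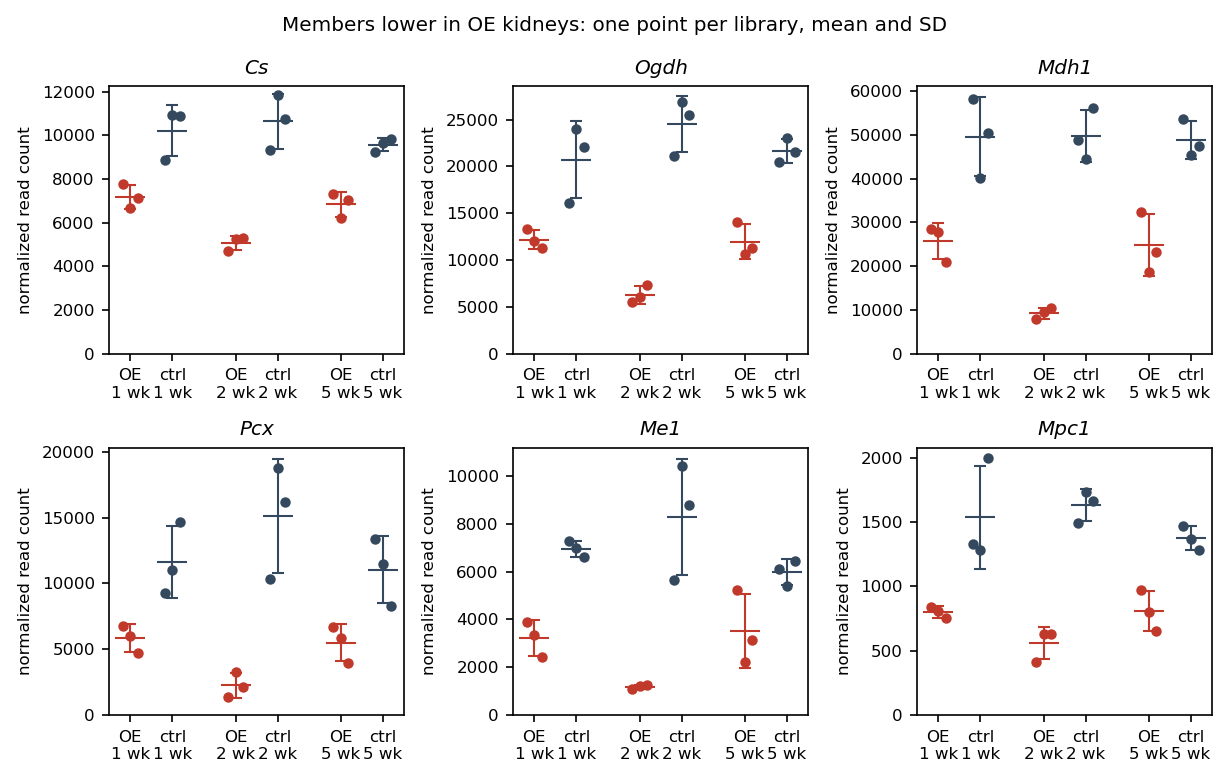
Normalized read counts of *Cs*, *Ogdh*, *Mdh1*, *Pcx*, *Me1* and *Mpc1* (y axes from 0) in OE (left of each pair) and control kidneys at 1, 2 and 5 weeks, with 1 point per library and bars of mean and SD. In all 6 genes the OE libraries lie below the controls of their week and are lowest at 2 weeks.

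Pyruvate reaches the mitochondrial matrix through a carrier made of the *Mpc1* and *Mpc2* products. *Mpc1* counted 839.9, 809 and 752 in OE kidneys at 1 week, against 1329, 1281 and 2001 in control kidneys. *Mpc1* was at 413, 628 and 633 in OE kidneys, against 1493, 1738 and 1665 in control kidneys, at 2 weeks, and at 5 weeks at 969.9, 800.3 and 654 in OE kidneys, against 1469.7, 1372 and 1286 in control kidneys. The log2 fold changes of *Mpc1* were -0.91, -1.57 and -0.78, the last with an adjusted p of 0.0101 from limma. *Mpc2* counted 5742, 5818 and 4729.8 in OE kidneys at 1 week, against 10472, 7439 and 9233 in control kidneys. The same gene had 2962, 3102 and 3089 in OE kidneys at 2 weeks, against 10608, 9214 and 9824 in control kidneys, and 7433, 5131 and 6577 in OE kidneys at 5 weeks, against 10241, 8590.1 and 9823 in control kidneys. The log2 fold changes of *Mpc2* were -0.73, -1.69 and -0.59. The 5-week call of *Mpc1* was lost without OE replicate 3, at -0.64, and that of *Mpc2* without OE replicate 2, at -0.45. A pseudogene, *Mpc1-ps*, is annotated for *Mpc1* and could share reads with it.

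*Pcx*, pyruvate carboxylase, refills the cycle with oxaloacetate and starts gluconeogenesis. Its counts were 6768, 6032 and 4707 in OE kidneys at 1 week, against 9236, 11046 and 14632 in control kidneys. After 2 weeks they were 1347, 3248 and 2158 in OE kidneys, against 10352, 18768 and 16203 in control kidneys. After 5 weeks they were 6651, 5889.9 and 3938 in OE kidneys, against 13378, 11502 and 8291 in control kidneys. *Pcx* and *Me1* had the largest falls of the 34 at 2 weeks, to 14.4% and 14.7% of control by the fit, and by group means their order turned, with 14.9% for *Pcx* and 14.2% for *Me1*. The control libraries of *Pcx* spread widely. The log2 fold change was -0.99 (SE 0.31, adjusted p = 0.0196, limma), -2.79 (SE 0.31, adjusted p = 9.74e-07) and -1.02 (SE 0.31, adjusted p = 0.0337). The 5-week call of *Pcx* was lost in 6 of 18 alternatives, among them the omission of OE replicate 2 or 3 or of control replicate 1 or 2, and over the 18 its log2 fold change lay between -1.28 and -0.79. The 1-week call was lost after quantile normalization, at -0.75, without OE replicate 3, at -0.84, and without control replicate 3, at -0.81.

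The pyruvate dehydrogenase complex has an E1 enzyme from *Pdha1* and *Pdhb*, an E2 core from *Dlat* and a binding protein from *Pdhx*. *Pdha1* counted 6975, 6169.6 and 6326 in OE kidneys at 1 week, against 8912, 9804 and 11299 in control kidneys. After 2 weeks *Pdha1* had 3175, 4495 and 4495 in OE kidneys, against 9592, 11669.9 and 10217 in control kidneys. After 5 weeks *Pdha1* had 7165, 6987 and 5963 in OE kidneys, against 8689, 9370.4 and 9305 in control kidneys. The OE libraries of *Pdha1* lay below the controls throughout, with log2 fold changes of -0.62 (SE 0.14, adjusted p = 0.0025, limma), -1.39 (SE 0.14, adjusted p = 3.6e-07) and -0.45 (SE 0.14, adjusted p = 0.0374). *Pdhb* had -0.44, -1.04 and -0.69, and *Dlat* -0.62, -1.48 and -0.52. The 5-week call of *Pdha1* was lost in 8 of 18 alternatives, among them the omission of any 1 library other than OE replicate 1, with -0.48 to -0.37. That of *Dlat* was lost without OE replicate 2, at -0.44, or 3, at -0.49. The 1-week call of *Pdhb* was lost without OE replicate 3, at -0.37, and after quantile normalization, at -0.22. The 1-week call of *Pdha1* was also lost after quantile normalization, at -0.35. *Pdhx* moved least among the 4 subunits at 2 weeks. Its counts were 1684, 1796 and 1449 in OE kidneys at 1 week, against 1919.7, 1779.9 and 1673 in control kidneys, and these overlapped. They were 1154, 1196 and 1108 in OE kidneys at 2 weeks, against 1516, 1709 and 1777 in control kidneys, and 1209, 996 and 1174 in OE kidneys at 5 weeks, against 1483, 1677 and 1617 in control kidneys. *Pdhx* did not pass the test at 1 week (-0.13, adjusted p = 0.391, limma), and was lower at 2 weeks (-0.53) and at 5 weeks (-0.50).

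Pyruvate dehydrogenase kinases phosphorylate and inhibit the complex, and the 4 kinase genes did not move as one. *Pdk4*, whose transcription is known to rise in fasting, counted 1553, 2289.9 and 1913 in OE kidneys at 1 week, against 629.9, 1433 and 1214 in control kidneys. At 2 weeks it counted 3689, 6733 and 3723 in OE kidneys, against 2469, 753 and 416 in control kidneys. At 5 weeks it counted 1179.8, 1677 and 554 in OE kidneys, against 1233, 817 and 539 in control kidneys. Control replicate 1 at 2 weeks was well above the other controls, and the OE libraries were still higher, while at 5 weeks the groups overlapped. That library was the only control at 2 weeks with *Xist* above 100, as were 2 OE libraries of that week. *Pdk4* rose at 2 weeks, to 492% of control, with a log2 fold change of 2.30 (SE 0.54, adjusted p = 0.00156, limma). By group means it stood at 389% of control, and without control replicate 1, the high library, its log2 fold change was 3.01. The value was 0.88 at 1 week (SE 0.54, adjusted p = 0.224) and 0.34 at 5 weeks (SE 0.54, adjusted p = 0.725), neither past the test. In a fit of the compared groups alone the 1-week value passed (adjusted p = 0.0406, limma). Without OE replicate 2 at 5 weeks the last value was -0.013, and in the *Ddx3y* libraries alone -0.31. Per kilobase of exon *Pdk4* ranked 5 of 34 in OE kidneys at 2 weeks, with 1343 reads, and 32 of 34 in control kidneys, with 301 ± 180 (SD, n = 9).

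The other kinase genes were lower where they passed the test. *Pdk2* counted 2640.5, 2960.3 and 2669.6 in OE kidneys at 1 week, against 4147, 5539.7 and 5990.3 in control kidneys. It had 1179.9, 3044 and 3014 in OE kidneys at 2 weeks, against 6943, 8183 and 7221 in control kidneys, and 3606, 4999.8 and 2689 in OE kidneys at 5 weeks, against 6265, 5513 and 5622 in control kidneys. Its log2 fold changes of -0.91 and -1.75 passed, and that of -0.67 at 5 weeks did not (adjusted p = 0.125, limma), although the groups did not overlap. In the *Ddx3y* libraries alone the 5-week value of *Pdk2* was -0.92 and passed. *Pdk1* counted 806, 1138 and 898 in OE kidneys at 1 week, against 1749, 1301 and 1941 in control kidneys. It was at 403, 635 and 842 in OE kidneys at 2 weeks, against 1477, 1704 and 1344 in control kidneys, and at 1131, 1491 and 1384 in OE kidneys at 5 weeks, against 1570.0, 2077 and 1986 in control kidneys. *Pdk1* was lower at 1 week (-0.81) and 2 weeks (-1.32), with -0.49 at 5 weeks (adjusted p = 0.157). *Pdk3* counted 1055, 967 and 743 in OE kidneys at 1 week, against 1035, 987 and 1274 in control kidneys, and 652, 543 and 656 in OE kidneys at 2 weeks, against 968, 2056 and 1503 in control kidneys. At 5 weeks *Pdk3* counted 881, 605 and 831 in OE kidneys, against 771, 976 and 1151 in control kidneys. At 1 week the call of *Pdk2* was lost without OE replicate 1 or 3 or control replicate 2 or 3, at -0.88 to -0.80, and that of *Pdk1* without control replicate 3, at -0.69. Only the 2-week value of *Pdk3* passed (-1.23), beside -0.26 and -0.32 at the other weeks.

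Pyruvate dehydrogenase phosphatases remove the inhibitory phosphate, and the 2 genes went opposite ways. *Pdp1* counted 822, 902 and 867 in OE kidneys at 1 week, against 660.0, 556 and 514 in control kidneys. At 2 weeks there were 921, 1151 and 1105 in OE kidneys, against 739.8, 378 and 584 in control kidneys. At 5 weeks there were 544, 788 and 703 in OE kidneys, against 736, 781 and 585 in control kidneys, with the groups overlapping. *Pdp1* rose at 2 weeks (0.95, SE 0.20, adjusted p = 0.000812, limma). That call held in all alternatives with more than 1 OE library at 2 weeks, whereas the *Ddx3y* libraries included only 1. Its rise at 1 week (0.59, SE 0.20, adjusted p = 0.0348) was lost in 9 of 18 alternatives, among them the fit without a filter, both rescalings, the *Xist* covariate and the omission of any 1 OE library or of control replicate 2 or 3. The 5-week value was -0.05. *Pdp2* counted 1831, 1604 and 1298 in OE kidneys at 1 week, against 2101, 2300.3 and 2606 in control kidneys, and 621, 833 and 817 in OE kidneys at 2 weeks, against 1637, 2454 and 2241 in control kidneys. At 5 weeks *Pdp2* counted 1587, 1226 and 1266 in OE kidneys, against 2216, 1621 and 1988 in control kidneys. It fell at 1 week (-0.57) and 2 weeks (-1.47), and its -0.51 at 5 weeks did not pass (adjusted p = 0.063, limma). The 5-week fall of *Pdp2* did pass by DESeq2 (-0.51, adjusted p = 0.0396) and by limma without OE replicate 1 (-0.63). The 1-week call of *Pdp2* was lost without OE replicate 3, at -0.44, and without control replicate 3, at -0.49.

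**Figure D4:**
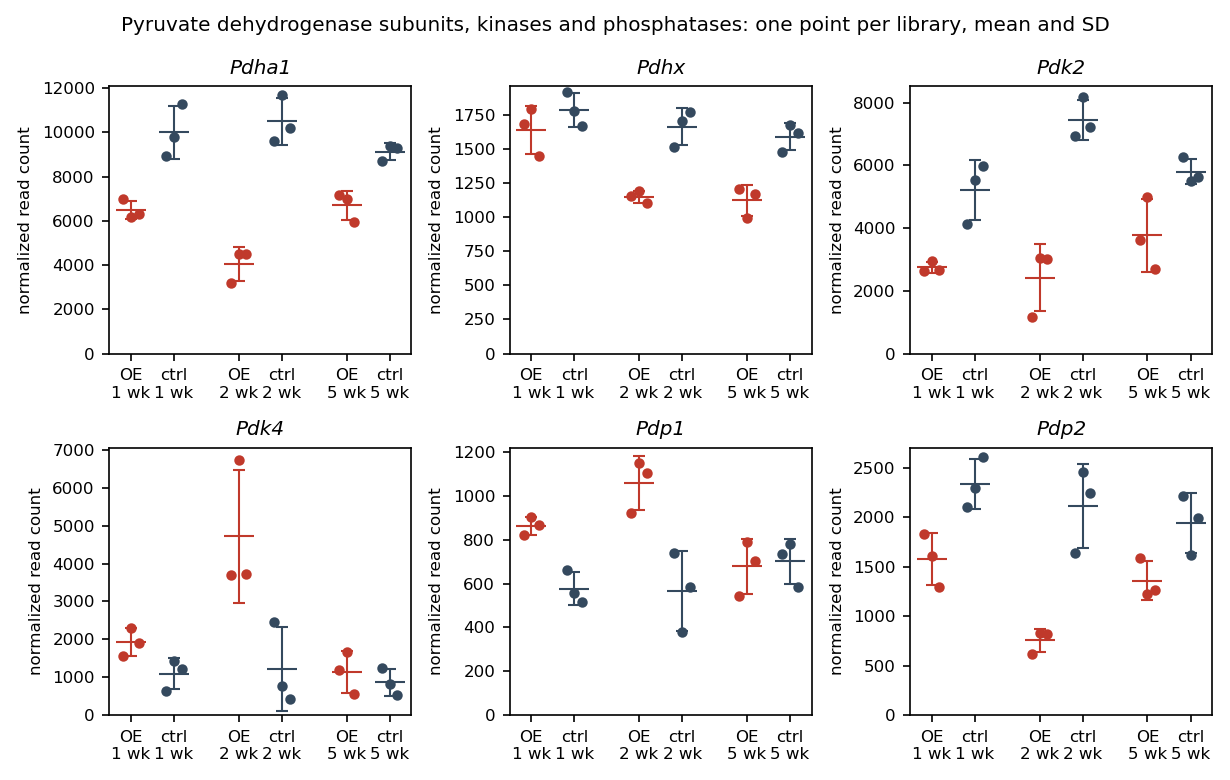
Normalized read counts (y axes from 0) of *Pdha1* and *Pdhx*, subunits of pyruvate dehydrogenase, of the kinase genes *Pdk2* and *Pdk4* and of the phosphatase genes *Pdp1* and *Pdp2*, in OE (left of each pair) and control kidneys at 1, 2 and 5 weeks, with 1 point per library and bars of mean and SD. *Pdk4* and *Pdp1* are above their controls in the OE libraries at 1 and 2 weeks, whereas *Pdk2* and *Pdp2* are below theirs at all 3 weeks.

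Citrate and malate leave the mitochondrion through the carriers of *Slc25a1* (citrate), *Slc25a10* (dicarboxylates) and *Slc25a11* (oxoglutarate and malate), and in the cytosol *Acly* splits citrate and *Me1* turns malate into pyruvate with the formation of NADPH. All 5 were lower at 1 and 2 weeks, and *Me1* and *Slc25a11* also at 5 weeks. *Me1* counted 3908, 3354 and 2434 in OE kidneys at 1 week, against 7265, 6978 and 6617 in control kidneys. In the next week it counted 1087, 1207 and 1235 in OE kidneys, against 5637, 10419 and 8776 in control kidneys. At 5 weeks the counts of *Me1* were 5226, 2204 and 3145 in OE kidneys, against 6112, 5404 and 6435 in control kidneys, and OE replicate 1 came near the lowest control. Its log2 fold changes were -1.13 (SE 0.26, adjusted p = 0.00297, limma), -2.77 (SE 0.26, adjusted p = 1.77e-07) and -0.85 (SE 0.26, adjusted p = 0.035). The 5-week call of *Me1* was lost in 10 of 18 alternatives, among them edgeR (adjusted p = 0.0547) and the omission of any 1 library other than OE replicate 1, and without OE replicate 2 its value was -0.56. *Slc25a10* counted 3577, 3721 and 2967 in OE kidneys at 1 week, against 6059, 7333 and 9491 in control kidneys. It was at 2181, 2677 and 3219.8 in OE kidneys at 2 weeks, against 9126, 13082 and 9299 in control kidneys, and at 7655, 6079 and 4695 in OE kidneys at 5 weeks, against 9460.4, 8246 and 7979 in control kidneys. *Slc25a10* had log2 fold changes of -1.14 and -1.96, and a value of -0.50 at 5 weeks that did not pass (adjusted p = 0.105). Without OE replicate 1 at 5 weeks that value was -0.68 and passed. *Slc25a11* had -0.72, -1.61 and -0.59. *Slc25a1* had -0.65 and -1.32, and *Acly* -0.68 and -0.96, with -0.20 for *Slc25a1* and -0.29 for *Acly* at 5 weeks, short of the test.

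Ratios of paired genes within a library do not depend on the scaling between libraries, and 9 pairs were compared. The pairs were picked with results on these genes known, so the ratios are given as descriptions of size, and the planned permutation test of them supports nothing here. The log2 ratio of *Pdk4* to *Pdk2* was -0.77, -0.37 and -0.48 in OE kidneys at 1 week, against -2.72, -1.95 and -2.30 in control kidneys. The 2-week ratio was 1.64, 1.14 and 0.30 in OE kidneys, against -1.49, -3.44 and -4.12 in control kidneys. At 5 weeks it was -1.61, -1.58 and -2.28 in OE kidneys, against -2.34, -2.75 and -3.38 in control kidneys. The ratio was higher in OE kidneys in each week with no overlap, by 2.28 on the log2 scale as a mean over the weeks.

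The log2 ratio of *Pdp2* to *Pdp1* was 1.16, 0.83 and 0.58 in OE kidneys at 1 week, against 1.67, 2.05 and 2.34 in control kidneys. At 2 weeks it was -0.57, -0.47 and -0.44 in OE kidneys, against 1.14, 2.70 and 1.94 in control kidneys, and at 5 weeks 1.54, 0.64 and 0.85 in OE kidneys, against 1.59, 1.05 and 1.76 in control kidneys. At 2 weeks it was below 0 in the OE libraries and above 1 in the controls, and at 5 weeks the groups overlapped. The mean difference, OE minus control, was -1.35. For *Pcx* to *Pdha1* the log2 ratio was -0.04, -0.03 and -0.43 in OE kidneys at 1 week, against 0.05, 0.17 and 0.37 in control kidneys. The 2-week values were -1.24, -0.47 and -1.06 in OE kidneys, against 0.11, 0.69 and 0.67 in control kidneys, and at 5 weeks -0.11, -0.25 and -0.60 in OE kidneys, against 0.62, 0.30 and -0.17 in control kidneys. The mean difference was -0.78, and the groups overlapped at 5 weeks. For *Mdh1* to *Mdh2*, cytosolic over mitochondrial, the mean difference was -0.46, with 0.61, 0.99 and 1.04 in OE kidneys at 2 weeks, against 1.70, 1.46 and 1.72 in control kidneys. At 1 week the groups overlapped for this pair, with 1.37 to 1.67 in OE kidneys, against 1.45 to 2.05 in control kidneys.

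For the other 5 ratios the mean differences, OE minus control, were 0.50 for *Pdk3* to *Pdk2*, 0.23 for *Pdk1* to *Pdk2*, 0.22 for *Idh1* to *Idh2*, 0.08 for *Mpc2* to *Mpc1* and -0.01 for *Suclg2* to *Sucla2*. *Suclg2* to *Sucla2* had differences of -0.02, -0.32 and 0.31 at 1, 2 and 5 weeks, so that its small mean hides opposite signs at 2 and 5 weeks.

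**Figure D5:**
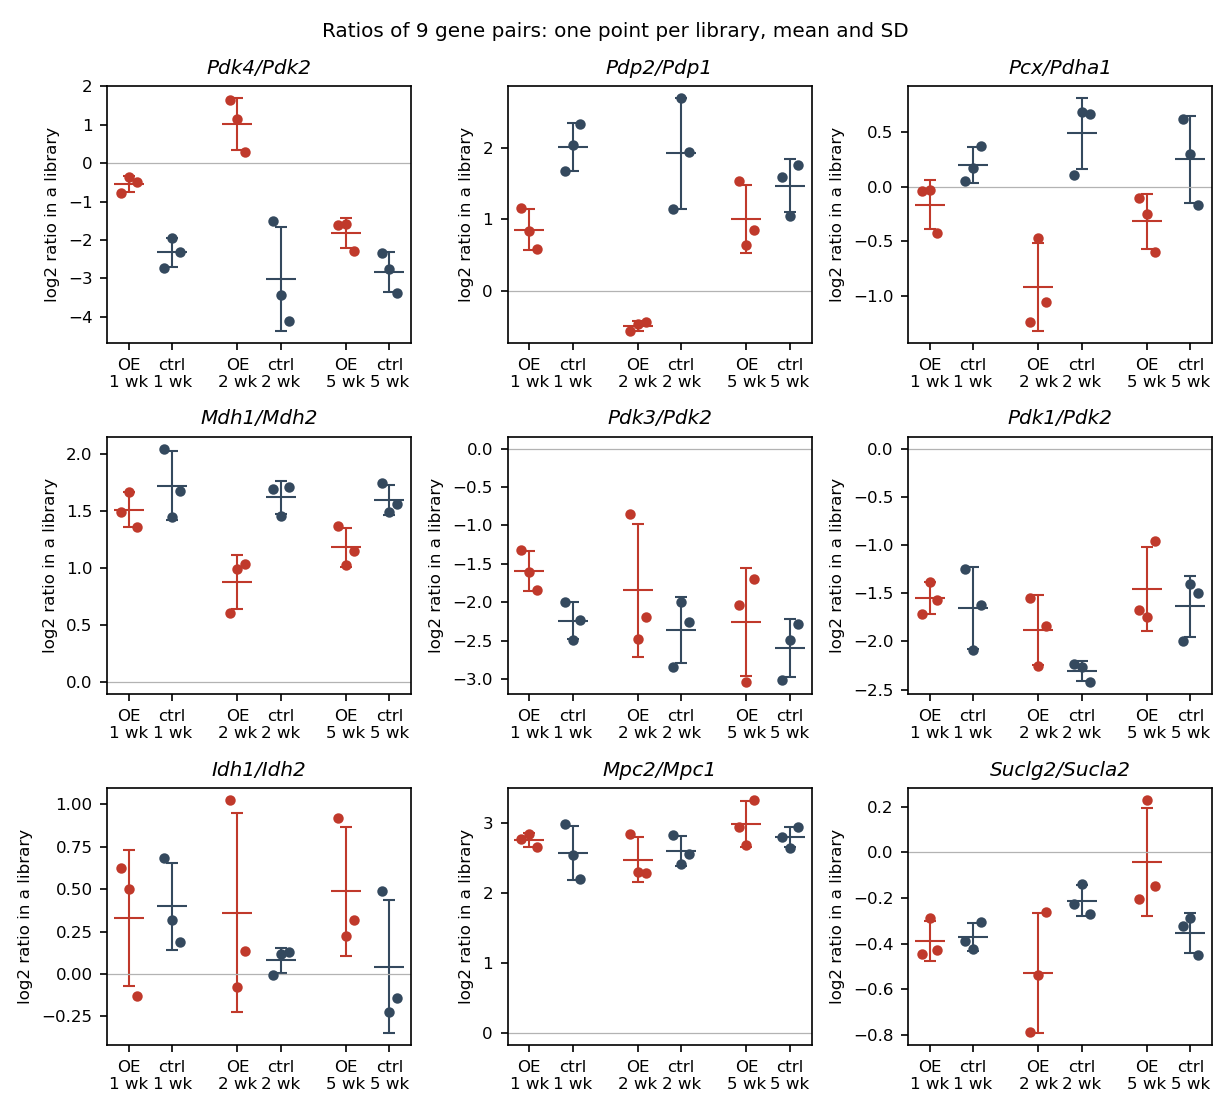
Log2 ratio of 2 genes within a library (y axes) for 9 pairs in OE (left of each pair of columns) and control kidneys at 1, 2 and 5 weeks, with 1 point per library and bars of mean and SD. *Pdk4* to *Pdk2* is the ratio with the largest mean difference, 2.28.

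The OE kidneys also differed between weeks. At 2 weeks, 28 of the 34 genes were lower than in OE kidneys at 1 week, against 16.2% of all genes. None was higher by limma, edgeR or DESeq2, against 12% of all genes by limma. At an unadjusted p under 0.05, for which no share of all genes was counted, each of these tests gave 1 higher gene. The 3 largest steps were those of *Mdh1* (-1.48), *Pcx* (-1.45) and *Me1* (-1.43). At 5 weeks, 30 were higher than in OE kidneys at 2 weeks, against 23.5% of all genes, and 2, *Pdk4* and *Pdp1*, were lower, against 22.4%. The largest of these steps were those of *Pdk4* (-2.13), *Suclg1* (1.53) and *Me1* (1.49). Without OE replicate 2 at 2 weeks or OE replicate 1 at 5 weeks only 1 of the 2 lower genes passed, as in the *Ddx3y* libraries alone. In control kidneys none of the 34 was called between any 2 weeks by limma, edgeR or DESeq2. At an unadjusted p under 0.05, each of these tests gave 2 genes between 2 and 1 weeks, 2 between 5 and 2 weeks and 0 between 5 and 1 weeks. Among all genes limma called 0.0177% lower and 0% higher between 2 and 1 weeks, 0.0471% lower and 0.0412% higher between 5 and 2 weeks, and 0% in either direction between 5 and 1 weeks.

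The difference between the weekly effects was itself tested, each effect against its own controls. From 1 to 2 weeks the effect of OE became more negative for 23 genes, against 6.8% of all genes. It became more positive for none by limma, edgeR or DESeq2, also at an unadjusted p under 0.05, against 2.27% of all genes. *Pcx* had a difference of -1.81 (SE 0.43, adjusted p = 0.0163, limma), *Me1* of -1.64 (adjusted p = 0.0115) and *Mdh1* of -1.49 (adjusted p = 0.00559). From 2 to 5 weeks the effect became more positive for 28 genes, against 14.9% of all genes, and more negative for 1, *Pdp1* (-0.999, adjusted p = 0.0159), against 14.4%. *Me1* changed by 1.92 (SE 0.36, adjusted p = 0.00102, limma), *Pcx* by 1.78 and *Suclg1* by 1.64. For *Pdk4* the differences of 1.42 and -1.96 did not pass (adjusted p = 0.266 and 0.063). These comparisons share the 2-week libraries of both genotypes.

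Genes next to these in the same pathways were counted as lists. Among all genes tested 15.6%, 28.8% and 7.9% were lower at 1, 2 and 5 weeks. Of 25 further TCA and pyruvate genes 15, 22 and 9 were lower at 1, 2 and 5 weeks, with median log2 fold changes of -0.62, -1.47 and -0.48. *Sdha*, the catalytic subunit of succinate dehydrogenase, had -0.97, -2.19 and -0.80. The largest of this list at 2 weeks were *Slc13a3*, a plasma membrane dicarboxylate transporter of the proximal tubule (-4.82), and *Dhtkd1*, a mitochondrial 2-oxoadipate dehydrogenase (-2.51). Of 44 oxidative phosphorylation subunits encoded in the nucleus 41, 44 and 41 were lower, with medians of -0.66, -1.58 and -0.64, led at 2 weeks by *Cox7a1* (-3.31) and *Ndufs1* (-2.30). Of 24 fatty acid oxidation genes 20, 23 and 9 were lower, with medians of -0.84, -1.61 and -0.39, led at 2 weeks by the peroxisomal genes *Acox2* (-3.68) and *Acaa1b* (-3.43).

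Of 20 glycolysis genes 5, 12 and 8 were lower and 3, 4 and 2 were higher, with medians of -0.12, -0.61 and -0.31. For this list and the next, the shares of all genes were 15.6%, 28.8% and 7.9% lower. Those of higher genes were 18.7%, 28.9% and 7.67%. *Hk3*, a hexokinase known from myeloid cells, had 2.75 and 3.14 at 1 and 2 weeks. At 5 weeks the largest were *Eno2* (1.78) and *Aldoc* (-1.40). Of 13 regulators of mitochondrial genes 6, 10 and 6 were lower and 1, 1 and 0 higher. *Ppargc1a*, a coactivator of mitochondrial biogenesis, had -0.10, -1.02 and -0.56, past the test at 2 weeks (adjusted p = 0.000407, limma), and *Esrra*, an estrogen-related receptor, -0.46, -1.23 and -0.70, past it at each week. *Esrrg*, of the same family, and *Hnf4a*, which is also counted among the proximal tubule markers, had -2.18 and -2.21 at 2 weeks, the largest of the list. The gene that was higher was *Nrf1*, a transcription factor of respiratory genes, with 1.10 at 1 week and 1.43 at 2 weeks, and it was singled out after its values were seen.

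The counting did not necessarily separate every gene from its neighbours. Exons of *Idh3b*, *Mdh1*, *Pdha1*, *Mpc1*, *Me1*, *Slc25a10* and *Slc25a11* overlap those of *Nop56*, *Wdpcp*, *Map3k15*, *4930506C21Rik*, *A330041J22Rik*, *Gm11788* and *Rnf167*, in that order, and the strand setting of the counting is not given in the sources used here.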

How the data were processed

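Kidney poly(A) RNA of 18 libraries was sequenced as 75-base single reads. Per the authors, alignment to mm10 used STAR, gene counting HTSeq and normalization DESeq2 (versions not given in the sources used here). The deposited signal values equal whole reads over 1 size factor for each library: dividing by the value of 1 read gave whole reads for 100% of values within 0.001. The planned test for normalized values, limma 3.58.1 with an intensity trend in R 4.3.3, was run on log2(value + 1) over genes with a mean above 10, with 1 fit of all 18 libraries and no covariate.

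The 34 genes, the other lists, the marker genes, the gene pairs and the motifs were chosen with earlier results of these data known. Counts per library were given for genes called against the majority, the 3 largest falls of each week, the 8 largest at 5 weeks, *Pdk4*, *Pdha1*, *Cs* and genes of the pairs, with *Pdhx* and *Suclg1* added after their values were seen. The 3 largest changes between weeks and in the interactions were named. From other lists *Sdha*, *Ppargc1a*, *Esrra* and the 2 largest called genes were named, and some genes under this rule are not reported here.

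The fit was repeated with a pseudocount of 0.5 or of 5, without a filter or with a minimum mean of 50, with upper-quartile rescaling, quantile normalization, edgeR 4.0.16 with TMM and DESeq2 1.42.0 from the whole reads, only the groups compared, the replicate number as a block, *Xist* as a covariate, the 12 libraries with *Ddx3y* above 100, and leaving out each library in turn. The limma fit was tested on simulated data. Gene coordinates and exon lengths came from GENCODE on GRCm38, which held 99.5% of the gene identifiers, and promoter sequence came from RefSeq on GRCm38.p6. Plots used matplotlib 3.10.9 under Python 3.11.15. Other assays of the study were not analysed here.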

Additional observations from a re-analysis of the deposited data

Results flagged for a closer look

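The effect of OE on the TCA cycle and pyruvate genes differed between weeks by a test of the difference itself, an interaction in limma with adjusted p over all genes. It was more negative at 2 weeks than at 1 week for 23 of the 34 genes, against 6.8% of all genes tested. The largest such differences were -1.81 for *Pcx*, -1.64 for *Me1* and -1.49 for *Mdh1*. At 5 weeks against 2 weeks the effect was more negative for 1 gene, *Pdp1*, with a difference of -0.999, and more positive for 28 genes, against 14.4% and 14.9% of all genes. The largest of these were 1.92 for *Me1*, 1.78 for *Pcx* and 1.64 for *Suclg1*. Both differences use the 2-week libraries of OE and control kidneys. *Lin28a* was 52622 to 116461 in OE kidneys at 2 weeks and 420.1 to 615 at 5 weeks, and the summed proximal tubule markers were 19556 to 47295 in OE kidneys at 2 weeks and 132851 to 226297 at 5 weeks. Their part in these differences was not tested.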

How the results depend on the processing

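The 2-week counts of 32 lower and 2 higher genes stayed the same with each library left out. Each of those calls held in all alternatives with more than 1 OE library at 2 weeks. The *Ddx3y* libraries included only 1 OE library of that week, so that fit is no check of the 2-week calls within 1 sex. At 1 week 17 of 30 lower calls held throughout, and at 5 weeks 7 of 24. The number of higher genes at 1 week was 1, and it was 0 with no filter, with upper-quartile rescaling, with quantile normalization and with the *Xist* covariate, and 2, *Pdp1* and *Pdk4*, in the fit of the compared groups. The number of lower genes at 1 week, 30, was 20 after quantile normalization. The number of lower genes at 5 weeks, 24, was 13 after quantile normalization and 11 in the *Ddx3y* libraries. For OE at 2 weeks against 1 week the fit of the compared groups gave 1 higher gene in place of 0, and for OE at 5 weeks against 2 weeks the *Ddx3y* libraries gave 1 lower gene in place of 2. The cause of these shifts was not tested. With each library left out in turn, the counts of lower and higher genes ranged from 25 to 30 and from 0 to 1 at 1 week, and lower genes at 5 weeks from 15 to 26, with higher genes at 0. Between OE weeks they ranged from 25 to 28 lower (2 against 1 weeks), and from 1 to 2 lower and 26 to 29 higher (5 against 2 weeks). The differing effects ranged from 16 to 26 and from 25 to 30. Values that changed sign: *Pdk4* at 5 weeks was -0.31 in the *Ddx3y* libraries, and with 1 library left out it ranged from -0.013 to 0.79, *Pdp1* at 5 weeks from -0.18 to 0.10 and the log2 ratio of *Suclg2* to *Sucla2* from -0.052 to 0.037. Same-numbered OE and control libraries correlated at -0.19 to 0.21 in their deviations from the group means, not all above 0.1. The main fit therefore did not treat the numbers as pairs, although 3 libraries per group cannot exclude a pairing. With the replicate block the counts were 30 lower and 1 higher at 1 week, 32 lower and 2 higher at 2 weeks and 24 lower at 5 weeks. Rescaling moved the median of all genes by less than 0.1 on the log2 scale in each week. This median lay near 0 under every scaling, so it cannot show how far the TCA and pyruvate genes moved. Among them, quantile normalization changed the count of lower genes from 30 to 20 at 1 week and from 24 to 13 at 5 weeks. That count stayed at 32 at 2 weeks. Counting error is small at these depths.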
